A study of Mus musculus with 24 samples.

Results

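The fatty acid desaturases and elongases described here are 10 genes of the 23972 in a table of liver read counts. They were chosen by name, with earlier results of these data known. They comprise 5 desaturases (Fads1, Fads2, Fads3, Fads6, and Scd2) and 5 elongases (Elovl1, Elovl2, Elovl3, Elovl5, and Elovl7). Desaturases of the endoplasmic reticulum place double bonds in fatty acyl chains, with electrons that cytochrome b5 delivers. Elongases catalyze the first and rate-limiting step of the cycle that lengthens a chain. In liver, both activities alternate to turn the essential fatty acids linoleic and alpha-linolenic acid into arachidonic and docosahexaenoic acid, which enter phospholipids and are secreted in lipoproteins.

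Liver mRNA was sequenced from 24 female mice in 4 groups that crossed genotype with treatment. All mice carried Lmna fl/fl alleles with loxP sites around exons 10 and 11, controls lacked Adipoq-Cre, and LmnaADKO mice carried Adipoq-Cre, which acts in adipocytes and in adipogenic progenitors of marrow. Mice were 12 to 14 weeks old at the start and were housed at 22°C. They ate a high-fat diet (60% fat) for 4 weeks before they received AAV8-FGF21 or vehicle (PBS with Pluronic). They were euthanized 8 weeks after the injection, and the study's methods describe no change of diet in that time. The groups held 7 vehicle-treated controls, 3 FGF21-treated controls, 6 vehicle-treated LmnaADKO mice, and 8 FGF21-treated LmnaADKO mice. In the labels the virus-treated groups carry the word Rescue, and the study's methods identify the agent as FGF21. Liver counts on Fgf21 were not called different between treatments, with 3.14, 3.80, and 7.40 CPM (counts scaled to library size) in FGF21-treated controls, 1.90 to 10.8 CPM in vehicle-treated controls, 2.19 to 9.995 CPM in FGF21-treated LmnaADKO livers, and 4.63 to 10.6 CPM in vehicle-treated LmnaADKO livers. The log2 fold change with FGF21 was 0.24 in controls and -0.58 in LmnaADKO livers (edgeR, adjusted p = 0.925 and 0.73).

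Libraries held 19863304 to 21510054 counts, and all levels below are CPM scaled by the trimmed mean of M values (TMM). With vehicle, Lmna averaged 18.6 CPM (SD 2.47) in the 7 controls and 26.7 CPM (SD 2.57) in the 6 LmnaADKO livers. Its log2 fold change was 0.52 (edgeR, adjusted p = 0.00322), and the groups did not overlap, but the change was under the fold limit used below. With FGF21 the log2 fold change of Lmna was 0.44 (edgeR, adjusted p = 0.107). Counts over the whole gene in liver do not test a deletion made in adipocytes. In 3 libraries, levels relative to the genotype's median profile fell with gene length more than in the others. Their slopes were -0.15 (control vehicle library 3), -0.29 (control FGF21 library 3), and -0.33 (LmnaADKO FGF21 library 7) log2 units per doubling of exonic length. The other 21 libraries had slopes of -0.11 to 0.13. No cutoff was set for the 3, and the step from -0.15 to -0.11 is small. Hepatocyte marker transcripts summed to 66321 to 139589 CPM per library, and the 4 adipocyte markers together reached at most 3.66 CPM, with up to 2 of them at 0 in all libraries of a group. Of 7 hepatocyte markers, Serpina1a and Cps1 were called lower in LmnaADKO livers with vehicle, and Serpina1a with FGF21 (test given below). With vehicle, 2 of the 7 were higher and 5 lower, and with FGF21, 1 was higher and 6 lower. Over all genes, 3.36% were called lower with vehicle and 1.26% with FGF21. In bulk tissue, fewer cells of a type and less RNA per cell cannot be told apart.

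In GRCm38, 5 of the 10 genes lie on chromosome 19, namely Fads3 (chr19:10041569-10060110, plus strand), Fads2 (chr19:10062765-10101746, minus strand), Fads1 (chr19:10182888-10196877, plus strand), Scd2 (chr19:44293674-44306864, plus strand), and Elovl3 (chr19:46131897-46135694, plus strand). The others are Elovl1 (chr4:118428093-118432953, plus strand), Elovl5 (chr9:77917364-77984519, plus strand), Fads6 (chr11:115279622-115297663, minus strand), Elovl2 (chr13:41182381-41220405, minus strand), and Elovl7 (chr13:108214404-108285683, plus strand).

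Of the 10 genes, 7 matched an entry in the RefSeq promoter table used here (Fads2, Fads3, Fads6, Elovl1, Elovl2, Elovl5, and Elovl7). The 250 bases upstream of the RefSeq start are printed for the 4 of these that passed the test in vehicle-treated mice, in build GRCm38.p6 and read 5′ to 3′ on the gene's strand. The windows are chr19:10101504-10101753 on the minus strand for Fads2, chr19:10041298-10041547 on the plus strand for Fads3, chr9:77917115-77917364 on the plus strand for Elovl5, and chr13:108214154-108214403 on the plus strand for Elovl7. The RefSeq start of Fads2 lies inside the gene as GENCODE bounds it above, so that 243 of the 250 bases printed for Fads2 are within those bounds, against 1 for Elovl5 and 0 for Fads3 and Elovl7. Capitals mark matches on either strand to the CCAAT box (CCAAT), the GC box (GGGCGG), the E-box (CACGTG), or the sterol response element (TCACNCCAC).
Fads2: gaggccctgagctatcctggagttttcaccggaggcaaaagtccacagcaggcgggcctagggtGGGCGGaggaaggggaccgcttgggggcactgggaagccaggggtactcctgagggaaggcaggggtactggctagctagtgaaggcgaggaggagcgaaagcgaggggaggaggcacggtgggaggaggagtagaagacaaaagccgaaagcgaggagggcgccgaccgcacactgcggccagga
Fads3: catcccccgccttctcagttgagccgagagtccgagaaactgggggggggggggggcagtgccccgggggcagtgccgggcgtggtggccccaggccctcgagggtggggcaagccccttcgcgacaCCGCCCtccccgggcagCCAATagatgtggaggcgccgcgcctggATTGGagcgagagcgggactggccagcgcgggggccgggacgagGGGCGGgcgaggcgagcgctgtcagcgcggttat
Elovl5: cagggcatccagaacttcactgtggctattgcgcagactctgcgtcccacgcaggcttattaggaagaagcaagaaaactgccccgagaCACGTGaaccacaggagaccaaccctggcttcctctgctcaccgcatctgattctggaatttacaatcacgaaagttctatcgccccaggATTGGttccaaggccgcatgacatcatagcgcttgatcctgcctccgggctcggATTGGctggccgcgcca
Elovl7: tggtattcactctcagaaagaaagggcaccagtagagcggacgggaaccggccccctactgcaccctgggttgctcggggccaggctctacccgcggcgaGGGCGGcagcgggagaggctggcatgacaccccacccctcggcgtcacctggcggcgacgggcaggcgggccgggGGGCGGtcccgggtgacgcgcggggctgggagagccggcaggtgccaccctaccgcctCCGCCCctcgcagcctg
In windows of 300 bases, the upstream bases and the 50 after the start, a GC box was present in 6 of the 7 genes and in 35.7% of 32851 promoters. A gene was counted if any of its windows matched, and Elovl1 and Elovl2 had more than 1 window. The shares are per promoter, so the 2 are not counted alike. A CCAAT box was present in 3 of 7 (Elovl1, Elovl5, and Fads3) and in 37.4% of promoters, and an E-box in 1 (Elovl5) and in 7.15%. The sterol response element was present in 0 of the 7 genes and in 1.24% of promoters, which says only that these letters are not in these windows. Elovl5 held the E-box at -161 and CCAAT matches at -71 and -17, counted from the start, and it was the 1 gene of the 7 without a GC box. Elovl7 held GC boxes at -150, -75, and -17.

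In vehicle-treated mice, LmnaADKO livers had higher transcript levels of 3 desaturases (Fads2, Fads3, and Scd2) and 3 elongases (Elovl3, Elovl5, and Elovl7) than controls. The changes ran from 1.54-fold for Fads3 to 6.07-fold for Elovl7. Fads1, Fads6, Elovl1, and Elovl2 did not pass the test. A gene was called at an adjusted p under 0.05 (edgeR's quasi-likelihood test with Benjamini-Hochberg adjustment across the 23972 genes) if its fold also exceeded 1.5. Thus, 6 of 10 genes were called higher, whereas 5.12% of all genes were called higher and 3.36% lower. Because the 10 genes were chosen with earlier results known, the shares describe them and are not independent support. Among genes that average 0 or more log2 CPM, which include all but Elovl7, 5 of 9 were called higher against 6.68% of all 12492 such genes. The log2 fold change (log2 FC) had a median of 0.65 for the 10 genes and 0.00265 for all genes.

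Fads1 and Fads2 encode the front-end desaturases of the polyunsaturated pathway and lie head to head on chromosome 19 of GRCm38, with starts 81.1 kb apart. Fads2 makes the first desaturation of linoleic acid and was at 348, 535, and 905 CPM (lowest, median, and highest) in vehicle-treated controls and at 879, 1106, and 1297 CPM in LmnaADKO livers. Every control was exceeded by 5 of the 6 LmnaADKO libraries, and the ranges overlapped through the lowest LmnaADKO library. The log2 FC of Fads2 was 0.87 (standard error, SE, 0.204, adjusted p = 0.00393). Fads1, which forms arachidonic acid, was at 315, 428, and 566 CPM in controls and 363, 526, and 598 CPM in LmnaADKO livers. Its ranges overlapped broadly, and its log2 FC of 0.33 was not called (SE 0.153, adjusted p = 0.167).

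The other desaturases were expressed at lower levels per kb of exon. Fads3, the third gene of the cluster, lies 60.2 kb from Fads2 between the starts and acts on sphingoid bases. It was at 3.15, 4.95, and 7.55 CPM in controls and 5.50, 7.57, and 10.6 CPM in LmnaADKO livers, with 3 of 6 libraries above every control. Its log2 FC of 0.62 passed both thresholds narrowly (SE 0.186, adjusted p = 0.0207). Without the 3 libraries with length slopes, the log2 FC was 0.55 for Fads3, under the fold limit. Fads3 was not called either without control vehicle library 3 alone (log2 FC 0.54), LmnaADKO vehicle library 5 (0.56), or LmnaADKO vehicle library 6 (0.51).

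Scd2, which makes monounsaturated chains and predominates in brain, was at 3.45, 4.43, and 5.85 CPM in controls. In LmnaADKO livers, Scd2 was at 5.99, 7.04, and 8.97 CPM, and the groups did not overlap. The log2 FC of Scd2 was 0.68 (SE 0.173, adjusted p = 0.00683). Scd1, its paralog and the main enzyme of this kind in liver, was 16.2 to 409 times as abundant per kb of exon as Scd2 in vehicle-treated controls and 535 to 1275 times in LmnaADKO livers. Its level was 819 ± 674 CPM in the 7 controls and 6542 ± 2166 CPM in the 6 LmnaADKO livers (mean ± SD). Scd1 was called higher, by 3.00 on the log2 scale (SE 0.561, adjusted p = 0.000871). Of 5461 stretches of 50 bases in Scd2 transcripts, 145 also occur in Scd1 transcripts, so some reads could be assigned to either gene. Fads2 and Fads3 share 5 such stretches, Fads6 shares 96 of 6621 with unrelated genes, and the other 6 genes share 0. Cdc20 and Pitx3 overlap Elovl1 and Elovl3 on the opposite strand, and the strand setting of the counting is not given in the sources used here. Across vehicle-treated controls, Scd1 ranged from 65.1 to 1895 CPM, and in those 2 libraries Scd2 was at 4.50 and 5.43 CPM. Fads6, a member whose substrate is not settled, was at 71.3, 104, and 124 CPM in controls and 84.6, 88.1, and 105 CPM in LmnaADKO livers. Fads6 ranges overlapped, with a log2 FC of -0.15 (95% interval -0.43 to 0.12).

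**Figure D1:**
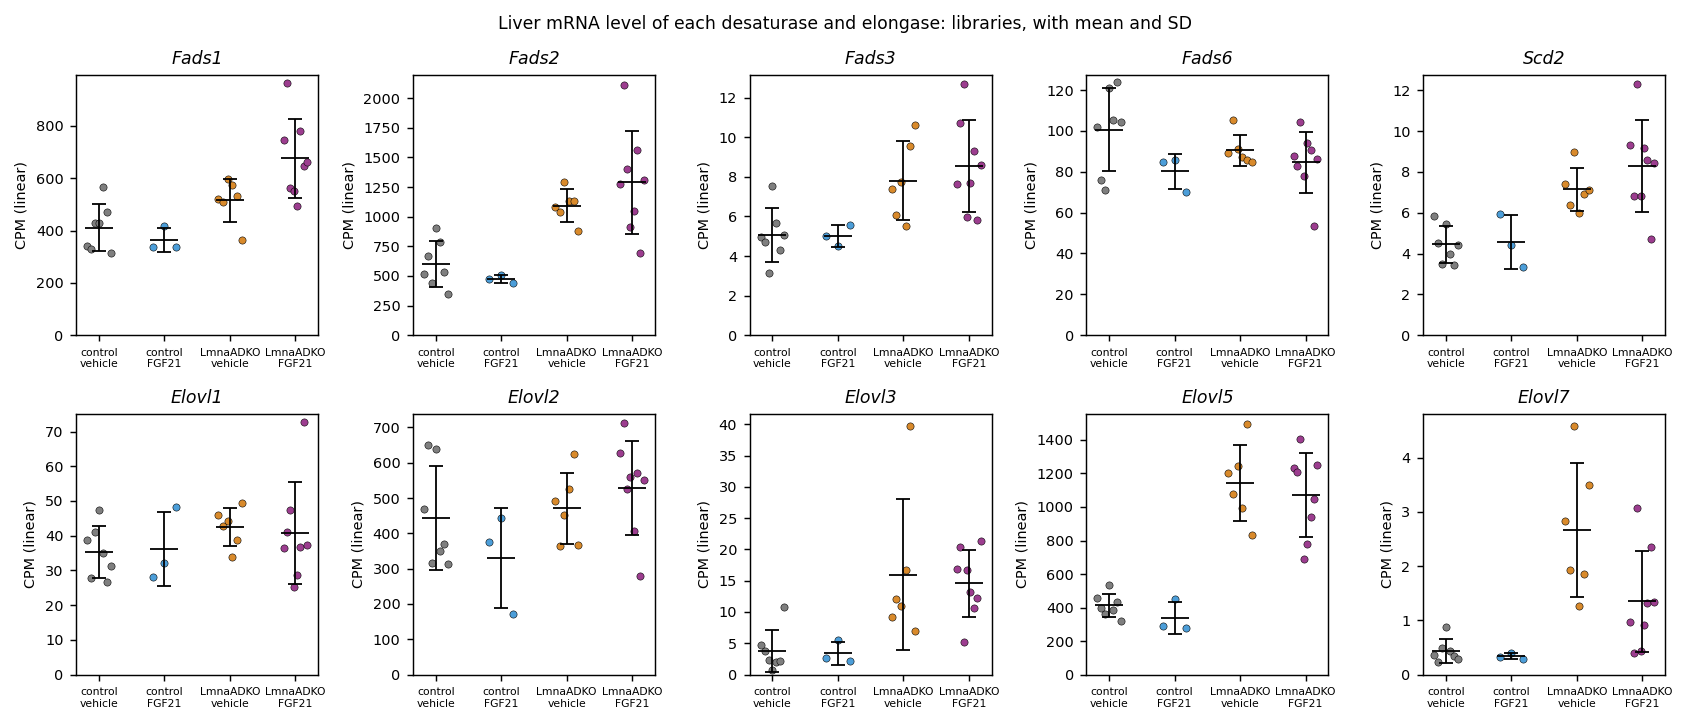
Liver transcript level of each gene in CPM on a linear axis that starts at 0 and differs between panels; points are libraries, and the bars give mean and SD for 7, 3, 6, and 8 libraries. Elovl5 shows separate ranges between genotypes under both treatments, whereas Fads6 and Elovl1 overlap in all groups.

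Among elongases, Elovl5 showed the smallest error relative to its change. Elovl5 lengthens the shorter chains of the polyunsaturated pathway, and it was at 320, 398, and 534 CPM in controls and 835, 1138, and 1494 CPM in LmnaADKO livers. The lowest LmnaADKO library thus lay above the highest control. The log2 FC of Elovl5 was 1.47 (SE 0.166, adjusted p = 5.82e-07). Elovl2, which acts on the next longer chains of the same pathway, was at 314, 370, and 649 CPM in controls and 363, 471, and 625 CPM in LmnaADKO livers. The ranges of Elovl2 overlapped almost entirely, and its log2 FC was 0.08 (95% interval -0.38 to 0.55).

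Elovl3 and Elovl7 showed the largest changes and had low levels. Elovl3, which extends saturated and monounsaturated chains, was at 0.691, 2.38, and 10.7 CPM in controls and 7.01, 11.5, and 39.7 CPM in LmnaADKO livers. One control at 10.7 CPM overlapped with LmnaADKO libraries, 4 of which exceeded every control. The log2 FC of Elovl3 was 2.08 (SE 0.497, adjusted p = 0.0063). Elovl7, which acts on saturated chains, was at 0.234, 0.363, and 0.875 CPM in controls and 1.27, 2.38, and 4.59 CPM in LmnaADKO livers. These levels of Elovl7 correspond to 5 to 19 counts per control library and 26 to 110 per LmnaADKO library, and the groups did not overlap. Its log2 FC was 2.60 (SE 0.405, adjusted p = 6.55e-05).

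Elovl1, which makes very long saturated chains for sphingolipids, was at 26.8, 35.0, and 47.4 CPM in controls and 33.7, 43.6, and 49.4 CPM in LmnaADKO livers. Its ranges overlapped, and the log2 FC of Elovl1 was 0.26 (95% interval -0.13 to 0.65). Elovl6, the elongase of palmitate and not among the 10 genes, had a log2 FC of 0.62 that was not called (adjusted p = 0.196). Among the 9 genes that average 0 or more log2 CPM, Scd2 and Elovl5 had every LmnaADKO library above every control, which held for 7.24% of all such genes.

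Label numbers and some markers of other cell types also differed between the genotypes. Of the vehicle-treated controls, 6 had 3-digit label numbers and 1 had a 4-digit number, whereas the LmnaADKO mice had 1 and 5, so that the number series and genotype largely coincided and neither series held enough mice for a comparison of its own. With the series as a covariate, 5 of the 6 genes were called, and Elovl3 had a log2 FC of 1.68 (adjusted p = 0.0513). Transcripts of 6 cholangiocyte markers summed to 27.1 to 51.2 CPM in vehicle-treated controls and 85.8 to 196 CPM in LmnaADKO livers, of which Spp1 and Cftr were called, and 0 markers were at 0 in all libraries of a group. With FGF21, cholangiocyte sums were 32.3 to 38.5 CPM in controls and 50.4 to 242 CPM in LmnaADKO livers, with 0 of 6 called by edgeR, 1 (Spp1) by DESeq2, and 2 at an unadjusted p under 0.05. Stellate cell markers summed to 192 to 240 CPM in controls and 239 to 312 CPM in LmnaADKO livers (Lrat called higher, 1 of 6). With FGF21 they summed to 227 to 244 CPM and 237 to 312 CPM, with 0 called by edgeR or DESeq2 and 3 at an unadjusted p under 0.05. With each treatment, 3 of the 6 stellate markers were higher and 3 lower. Among endothelial markers Lyve1 was called higher with both treatments (1 of 6), and DESeq2 also called Clec4g lower with FGF21. Of the 6, 3 were higher and 3 lower with vehicle, and 2 were higher and 4 lower with FGF21. Endothelial sums were 217 to 273 CPM in controls and 207 to 262 CPM in LmnaADKO livers with vehicle. With FGF21 these sums were 272 to 288 CPM and 211 to 277 CPM. For 7 macrophage markers and 6 lymphocyte markers, 0 were called with either treatment by edgeR or DESeq2, and 2 and 1 had an unadjusted p under 0.05 in edgeR with vehicle and 1 and 0 with FGF21. Macrophage markers summed to 606 to 839 CPM in vehicle-treated controls and 424 to 750 CPM in LmnaADKO livers, and lymphocyte markers to 16.7 to 31.6 and 16.8 to 32.2 CPM. Adipocyte markers had 0 of 4 called by edgeR with either treatment, 1 (Cfd, higher) by DESeq2 with vehicle and 0 with FGF21, and 1 and 3 at an unadjusted p under 0.05. Of these 4, 1 was higher and 2 lower with vehicle, and 4 were lower with FGF21. Over all genes, edgeR called 5.12% higher and 3.36% lower with vehicle, and 1.61% higher and 1.26% lower with FGF21. An unadjusted p under 0.05 was found by edgeR for 6481 of the 23972 genes with vehicle and 4063 with FGF21. The marker counts at that limit are to be read beside these. The part of these cell types in the differences was not tested.

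In FGF21-treated mice, LmnaADKO livers had higher levels of Fads1, Fads2, Scd2, and Elovl5 than controls, by 1.81- to 3.15-fold. All 10 log2 FCs were above 0. Thus, 4 of 10 genes were called higher, against 1.61% of all genes called higher and 1.26% lower. These 4 were among the 9 genes that average 0 or more log2 CPM, and 2.7% of all 12492 such genes were called higher. The log2 FC had a median of 0.87 for the 10 genes and 0.02 for all genes. The mice of this comparison were different from those treated with vehicle, and Fads2, Scd2, and Elovl5 were called in both, which is 3 of 6 calls with vehicle and 3 of 4 with FGF21.

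Fads2 was at 476, 509, and 444 CPM in the 3 FGF21-treated controls and at 692, 1291, and 2111 CPM (lowest, median, and highest) in the 8 LmnaADKO livers. The groups did not overlap, and the log2 FC of Fads2 was 1.44 (SE 0.271, adjusted p = 0.00255). Fads1 was at 338, 417, and 338 CPM in controls and at 495, 654, and 964 CPM in LmnaADKO livers, also without overlap. The log2 FC of Fads1 was 0.89 (SE 0.197, adjusted p = 0.00834). Without the 3 libraries with length slopes the adjusted p of Fads1 was 0.0622, and without control FGF21 library 3 alone it was 0.0627.

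Elovl5 was at 292, 449, and 277 CPM in FGF21-treated controls and at 688, 1130, and 1403 CPM in LmnaADKO livers, without overlap. Its log2 FC was 1.65 (SE 0.221, adjusted p = 4.14e-05). Scd2 was at 5.94, 4.44, and 3.32 CPM in controls and at 4.70, 8.52, and 12.3 CPM in LmnaADKO livers. Every control was exceeded by 7 of 8 LmnaADKO libraries, and the log2 FC of Scd2 was 0.85 (SE 0.221, adjusted p = 0.0237). The call on Scd2 was lost without control FGF21 library 2 (adjusted p = 0.104) or library 3 (adjusted p = 0.194), and not without the 3 libraries with length slopes (adjusted p = 0.0436).

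Fads3, Elovl3, and Elovl7 had log2 FCs in FGF21-treated mice of 0.77, 2.09, and 1.96 and missed the threshold, with adjusted p-values of 0.0637, 0.091, and 0.0533. Fads3 was at 4.99, 4.49, and 5.59 CPM in controls and at 5.82, 8.12, and 12.7 CPM in LmnaADKO livers, without overlap. Elovl7 was at 0.333, 0.3995, and 0.291 CPM in controls (5 to 8 counts) and at 0.4024, 1.15, and 3.07 CPM in LmnaADKO livers (8 to 74 counts), which left only a small gap between 0.3995 and 0.4024 CPM. Elovl3 was at 2.57, 5.54, and 2.10 CPM in controls and at 5.27, 14.9, and 21.4 CPM in LmnaADKO livers, of which 7 of 8 exceeded every control. With DESeq2, all 3 genes were called, for a total of 7 of 10.

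Elovl2 was at 376, 444, and 171 CPM in FGF21-treated controls and at 278, 555, and 711 CPM in LmnaADKO livers. The lowest of these controls was library 3, and the log2 FC of Elovl2 was 0.68 (SE 0.283, adjusted p = 0.207). Elovl1 was at 28.2, 32.1, and 48.2 CPM in controls and at 25.2, 37.1, and 72.7 CPM in LmnaADKO livers, and both maxima belonged to libraries with a length slope. Fads6 was at 84.7, 85.7, and 70.2 CPM and at 53.3, 87.1, and 105 CPM. Neither Elovl1 nor Fads6 was called, with log2 FCs of 0.17 (95% interval -0.31 to 0.65) and 0.08 (95% interval -0.26 to 0.41). Separate ranges were found for 4 of the 9 genes that average 0 or more log2 CPM (Fads1, Fads2, Fads3, and Elovl5), which held for 5.03% of all such genes.

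All 3 FGF21-treated controls had 4-digit label numbers, as did 4 of the 8 LmnaADKO mice. Within this series, 2 genes were called. They were Elovl5 and Elovl3, and Fads1, Fads2, and Scd2 had log2 FCs of 0.82, 1.27, and 0.75 (adjusted p = 0.165, 0.0702, and 0.437). The log2 FC was 1.56 for Elovl5 (adjusted p = 0.0206) and 2.06 for Elovl3 (adjusted p = 0.0391) within the series.

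**Figure D2:**
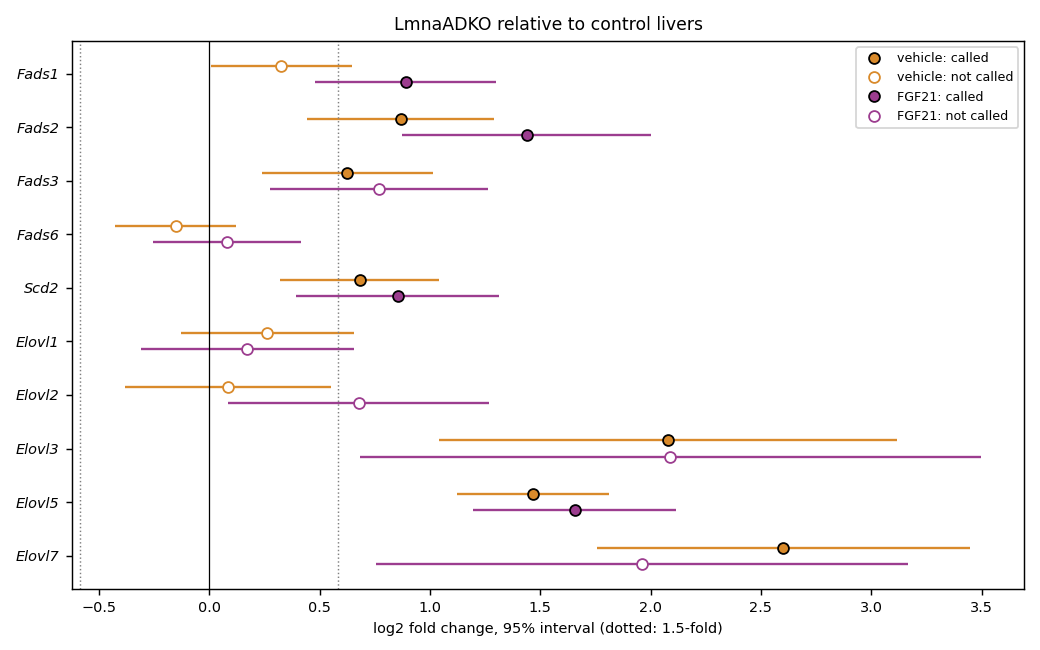
Log2 fold change of each gene in LmnaADKO relative to control livers (horizontal axis) with vehicle (orange, 6 against 7) and FGF21 (purple, 8 against 3); lines are 95% intervals, filled points were called, and dotted lines mark a fold of 1.5. The intervals of Elovl3, Elovl5, and Elovl7 lie above the upper dotted line with both treatments, and those of Fads6 and Elovl1 cross 0.

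FGF21 treatment was then compared with vehicle within each genotype, and no desaturase or elongase was called. In controls, 0 of 10 genes were called by edgeR or DESeq2, and 0.0542% of all genes were called by edgeR (38 genes by DESeq2). An unadjusted p under 0.05 in edgeR was found for 0 of the 10, against 1476 of all 23972 genes. Fads2 had a log2 FC of -0.33 (95% interval -0.87 to 0.20) and Elovl5 of -0.28 (95% interval -0.71 to 0.15). Elovl2 had -0.42 (95% interval -1.02 to 0.17), and the interval of Elovl3 ran from -1.51 to 1.23. These intervals include changes of 1.5-fold, so the data do not show that the levels were alike.

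In LmnaADKO livers, 0 of 10 genes were called by edgeR or DESeq2, 0% of all genes were called by edgeR, and 15 of all genes were called by DESeq2. An unadjusted p under 0.05 in edgeR was found for 2 of the 10, against 1608 of all 23972 genes. Elovl7 had a log2 FC of -0.98 (95% interval -1.71 to -0.25, adjusted p = 0.696), and 4 of 8 treated libraries lay below every vehicle library. Fads1 had a log2 FC of 0.39 (95% interval 0.08 to 0.70, adjusted p = 0.704), with 5 of 8 treated libraries above every vehicle library. Elovl5 had -0.09 (95% interval -0.43 to 0.24).

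The genotype difference itself was compared between treatments as an interaction. By edgeR and by DESeq2, 0 of 10 genes were called, and 0.00417% of all genes were called by edgeR. In edgeR, 1 of the 10 (Fads1) had an unadjusted p under 0.05, against 1165 of all 23972 genes. The genotype difference of Fads1 was larger by 0.57 on the log2 scale with FGF21 (95% interval 0.05 to 1.08, adjusted p = 0.984). For Elovl5 the interaction was 0.19 (95% interval -0.36 to 0.73) and for Elovl3 0.01 (95% interval -1.63 to 1.65). Calls on Fads3, Elovl3, and Elovl7 with vehicle, and on Fads1 with FGF21, therefore do not show that the genotype difference depended on treatment. The interaction and the comparisons it combines share all their libraries.

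**Figure D3:**
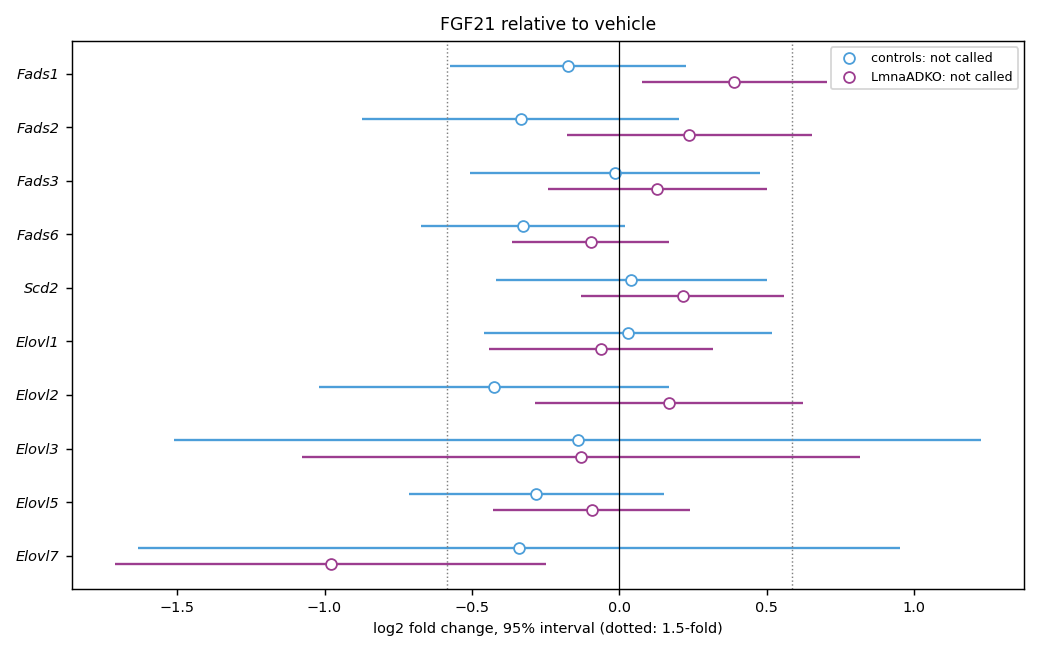
Log2 fold change of each gene with FGF21 relative to vehicle (horizontal axis) in controls (blue, 3 against 7) and LmnaADKO mice (purple, 8 against 6), with 95% intervals and dotted lines at a fold of 1.5. All points are open because none was called, and the intervals of Fads1 and Elovl7 in LmnaADKO mice do not reach 0.

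Levels per kb of exon let the genes be compared with each other. In vehicle-treated controls, Fads2 was highest, at 182 ± 59.6 CPM per kb (SD, n = 7), followed by Elovl5 (117 ± 19.8), Elovl2 (112 ± 36.9), and Fads1 (85.5 ± 18.8). The ranges of neighbors among these 4 overlapped. Fads6 (15.1 ± 3.06) and Elovl1 (12.99 ± 2.74) formed a second tier that overlapped with each other and lay below every Fads1 value. Elovl3 (1.91 ± 1.68), Fads3 (1.33 ± 0.355), and Scd2 (0.814 ± 0.169) followed with overlapping neighbors, and Elovl7 (0.108 ± 0.0531) lay below every Scd2 value.

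In vehicle-treated LmnaADKO livers, Fads2 (332 ± 41.5 CPM per kb, SD, n = 6) and Elovl5 (324 ± 64.5) overlapped with each other and lay above Elovl2 (119 ± 25.1) in every library. The order of the genes was otherwise kept, apart from Elovl1 and Fads6, which exchanged places and overlapped in both groups. With FGF21, Fads2 was at 392 ± 132 and Elovl5 at 304 ± 71.1 CPM per kb in LmnaADKO livers (SD, n = 8), and Fads1 (140 ± 31.5) and Elovl2 (133 ± 33.5) exchanged places with overlapping ranges. The spread of levels between the highest and lowest gene was 1681-fold in controls and 501-fold in LmnaADKO livers with vehicle, and 1701-fold and 1164-fold with FGF21. Elovl7 was the lowest gene in all 4 groups, at 5 to 19 counts per control library.

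**Figure D4:**
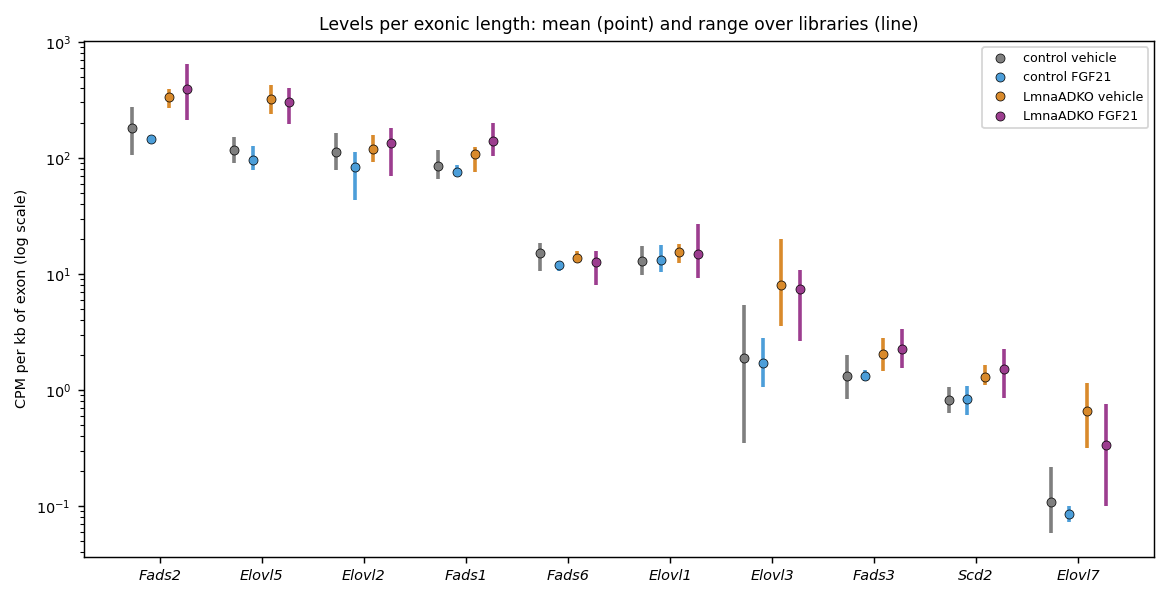
Level of each gene in CPM per kb of exon (vertical log axis), ordered by the mean in vehicle-treated controls; points are group means and lines span the lowest to the highest library of the 4 groups. In vehicle-treated controls Fads2, Elovl5, Elovl2, and Fads1 average 182, 117, 112, and 85.5 CPM per kb, and Elovl7 averages 0.108.

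Ratios within a library, chosen after the levels were seen, described the balance of paired steps. The ratio of Elovl5 to Elovl2 per kb was 0.690, 1.15, and 1.33 (lowest, median, and highest) in vehicle-treated controls and 2.14, 2.72, and 3.33 in LmnaADKO livers. With FGF21 the ratio was 0.875, 1.14, and 1.82 in the 3 controls and 1.38, 2.18, and 4.25 in LmnaADKO livers. Thus, the genotypes had separate ratios with vehicle and overlapping ratios with FGF21. The overlap came from control FGF21 library 3, a library with a length slope, at 1.82, and from the lowest LmnaADKO library, at 1.38. The next LmnaADKO library was at 1.86. The controls at 0.875 and 1.14 lay below every LmnaADKO value. The ratio of Fads2 to Fads1 was 1.501, 2.03, and 3.08 in vehicle-treated controls and 2.89, 3.07, and 3.54 in LmnaADKO livers, with overlap.

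The coefficient of variation was highest for Elovl3 in vehicle-treated controls (88.3%), FGF21-treated controls (54.9%), and vehicle-treated LmnaADKO livers (75.8%), and for Elovl7 in FGF21-treated LmnaADKO livers (68.8%, against 36.7% for Elovl3). It was lowest for Elovl5 (16.9%), Fads2 (6.75%), Fads6 (8.38%), and Fads6 (17.7%) in the same 4 groups. After each gene was centered on its 4 group means, 28 of 45 pairs of the genes had a positive Pearson r over the 24 libraries, which share depth and any length slope. A value of 0.5 was reached by 9 pairs, of which 5 also did so without the 3 libraries with length slopes, and 7 pairs changed sign without them. Fads1 and Fads2 had r = 0.61 (0.73 without the 3 libraries), and Fads2 and Elovl2 had 0.65 (0.59). Elovl1 and Elovl7 had 0.65 (0.69), Elovl3 and Elovl7 had -0.58 (-0.63), and Elovl1 and Elovl2 had -0.42 (0.17).

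The same measure named the 3 genes most like each of 9 members among 12470 candidates, over the 24 libraries, and Elovl7 was left out because its average was under 0 log2 CPM. The r values are the highest of 12470 per member and are large partly by that selection. Whether neighbors share a function with a member was not tested. Fads1 was nearest to Pmvk (r = 0.82), Mknk2 (0.81), and Chrna4 (0.80), and Pmvk encodes phosphomevalonate kinase of the cholesterol pathway. Fads2 was nearest to Rerg (0.70), Agap3 (0.67), and Kctd21 (0.67). Fads3 was nearest to Ablim1 (0.78), Dcbld1 (0.75), and Agap2 (0.74). Elovl5 was nearest to Gucy2c (0.80), Trmo (0.74), and Rnf11 (0.71). Elovl3 was nearest to Ugt3a1 (0.83), Cyp7b1 (0.81), and Slc22a30 (0.78), where Cyp7b1 is an oxysterol hydroxylase of bile acid synthesis. Scd2 was nearest to Rfc1 (0.90), Iqgap1 (0.88), and Asap1 (0.87), and Elovl1 to Maged2 (0.92), Ifi30 (0.91), and Cacnb3 (0.90). Fads6 was nearest to Dennd2d (0.86), Rrm2b (0.85), and Rmi1 (0.85), and Elovl2 to Fbxl5 (0.81), Fxr2 (0.81), and Sdc3 (0.80). Without the 3 libraries with length slopes, r was 0.61, 0.53, and 0.56 for the Elovl2 neighbors and 0.79, 0.71, and 0.68 for those of Fads6. It was 0.55, 0.68, and 0.54 for those of Fads2, 0.83, 0.84, and 0.81 for those of Fads1, and 0.70 to 0.90 for those of the remaining 5 members.

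Genes for proteins that complete elongation and desaturation were then examined. Over all genes, 5.12% were called higher and 3.36% lower with vehicle, and 1.61% and 1.26% with FGF21. A call on 1 gene of a short list is therefore given for that gene and not for its list. Of 6 partners of the elongation cycle, Hsd17b12, the ketoacyl reductase that acts after the elongase, was called higher in LmnaADKO livers, and the others (Tecr and 4 Hacd genes) were not called. Hsd17b12 rose from 94.2 to 212 CPM with vehicle (log2 FC 1.17, adjusted p = 9.88e-09) and from 85.6 to 172 CPM with FGF21 (1.002, adjusted p = 3.78e-05), without overlap of libraries. Of 6 electron donors, Cyb5r3, a cytochrome b5 reductase, rose from 319 to 487 CPM with vehicle (log2 FC 0.61, adjusted p = 0.000397) and from 298 to 510 CPM with FGF21 (log2 FC 0.77, adjusted p = 0.00242). The vehicle call on Cyb5r3 was lost on the fold limit, at log2 FC of 0.56 to 0.58, without control vehicle library 1, 2, or 7 or LmnaADKO vehicle library 3. Of the 6 donors, 2 were higher and 4 lower with vehicle, and 3 were higher and 3 lower with FGF21. By the adjusted p alone, without the fold limit, 3 of the donors passed with vehicle and 2 with FGF21.

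The list medians of log2 FC were 0.12 and 0.05 for the elongation partners and -0.24 and -0.05 for the electron donors, with vehicle and FGF21. Of 8 genes of peroxisomal chain shortening, which trims the longest polyunsaturated chains, Scp2 (sterol carrier protein) was called, with log2 FCs of 0.74 with vehicle (adjusted p = 1.5e-05) and 0.74 with FGF21 (adjusted p = 0.00194). Of 9 acyltransferases that place fatty acids in phospholipids, Mboat1 was called with vehicle, at 0.144 and 0.368 CPM in controls and LmnaADKO livers, near the floor of 3 counts (0.124 to 0.176 CPM), and its call was lost without any 1 of control vehicle library 1, 3, 5, or 6 or LmnaADKO vehicle library 1, 2, or 6 (adjusted p = 0.0504 to 0.0659). With FGF21, 0 of 9 were called by edgeR or DESeq2, and 0 had an unadjusted p under 0.05. Of 6 ceramide synthases, 0 were called by edgeR or DESeq2 with either treatment, and 1 had an unadjusted p under 0.05 with each. Of all 23972 genes, 6481 had such a p in edgeR with vehicle and 4063 with FGF21. Median log2 FC with vehicle and FGF21 was 0.29 and 0.31 for peroxisomal shortening, 0.08 and 0.10 for acyl transfer, and 0.02 and -0.10 for ceramide synthases. Of the 5 other desaturases and elongases, Scd1 was called with both treatments, by 4.16 on the log2 scale with FGF21 (SE 0.84, adjusted p = 0.00673). The adjusted p of Scd1 with FGF21 was 0.0583 without control FGF21 library 3 and 0.0552 without the 3 libraries with length slopes.

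Among 11 regulators of lipid gene transcription, 3 were called higher and 1 lower in LmnaADKO livers with each treatment, and the median log2 FC was 0.00080 with vehicle and 0.29 with FGF21. Shares over all genes were 5.12% higher and 3.36% lower with vehicle, and 1.61% and 1.26% with FGF21. DESeq2 called 3 higher and 2 lower with vehicle, adding Scap, and 2 higher and 1 lower with FGF21, without Pparg. Insig2, which retains the sterol-sensing complex in the endoplasmic reticulum, had log2 FC values of 1.20 with vehicle (adjusted p = 0.000288) and 1.58 with FGF21 (adjusted p = 0.00202). Insig1, of the same function, had 0.96 (adjusted p = 0.00936) and 1.42 (adjusted p = 0.014), and the latter call was lost without control FGF21 library 1 (adjusted p = 0.0504), without library 3 (adjusted p = 0.127), and without the 3 libraries with length slopes (adjusted p = 0.094). Pparg, an inducer of lipid storage genes, had 0.90 (adjusted p = 1.74e-05) and 0.59 (adjusted p = 0.0365). Mlxipl, which encodes the carbohydrate-responsive factor ChREBP, fell by 0.95 on the log2 scale with vehicle (adjusted p = 8.99e-06) and by 0.60 with FGF21 (adjusted p = 0.0203). With FGF21, Pparg was not called without control FGF21 library 1 or 2 or LmnaADKO FGF21 library 3 or 7, nor Mlxipl without control FGF21 library 1 or 2 or LmnaADKO FGF21 library 2 or 7. Pparg was also not called with FGF21 by DESeq2 (log2 FC 0.58), with DESeq2's size factors in edgeR (log2 FC 0.58), with only the compared groups fitted (adjusted p = 0.0908), or with the label number covariate (adjusted p = 0.121), nor Mlxipl with only the compared groups fitted (adjusted p = 0.114). Within the 4-digit series, Cyb5r3, Scp2, Insig1, Pparg, and Mlxipl were not called with FGF21 (adjusted p = 0.155, 0.182, 0.091, 0.484, and 0.482). With each of those libraries left out, Pparg had a log2 FC of 0.43 to 0.60 and Mlxipl of -0.62 to -0.42. Srebf1, named after its values were seen and known as an inducer of desaturases, was at 267 and 274 CPM in controls and LmnaADKO livers with vehicle (log2 FC 0.04, adjusted p = 0.924). These are transcript levels of Srebf1, and whether the activity of its protein differed was not tested. The label number series, the cell type markers, and the length slopes given above apply to these genes too.

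**Figure D5:**
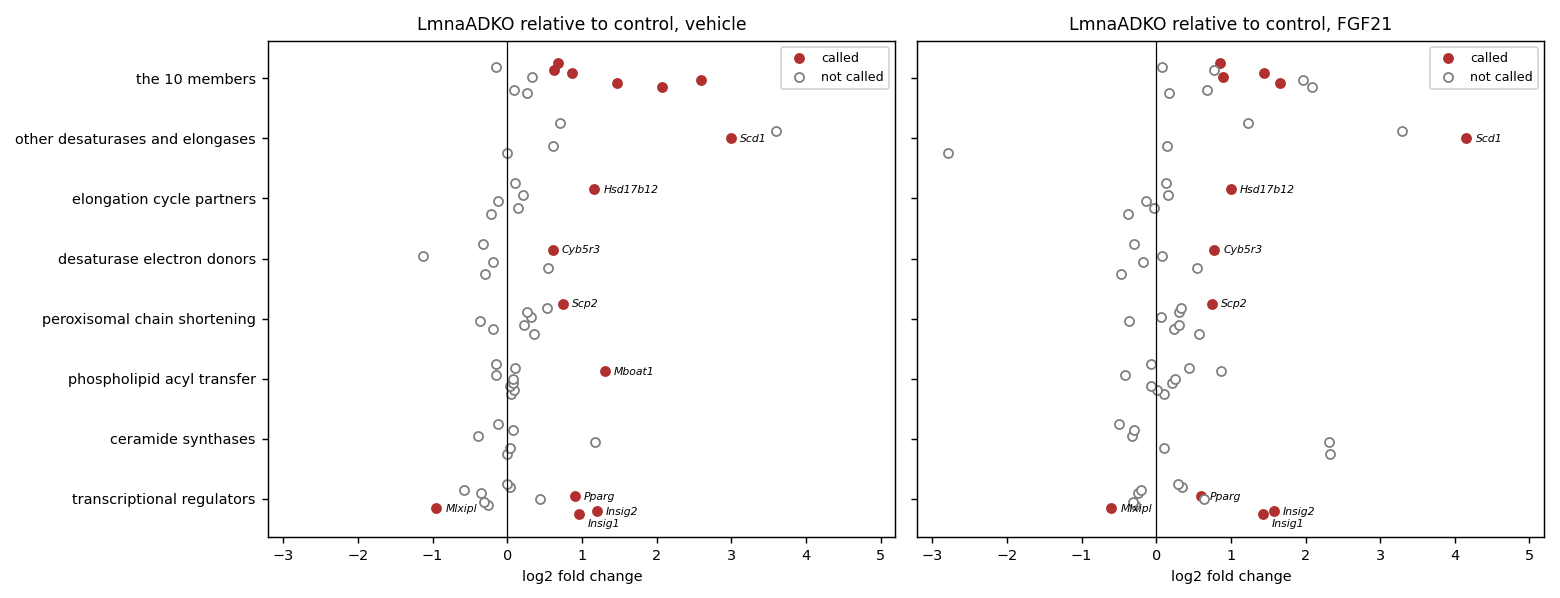
Log2 fold change in LmnaADKO relative to control livers (horizontal axis) for the 10 genes and for 7 lists of related genes, with vehicle (left) and FGF21 (right); each point is a gene, and red points were called. With vehicle, 6 of the 10 genes are red, against 1 gene in each of 5 lists, 4 of 11 regulators, and 0 of 6 ceramide synthases. Over all genes, 5.12% were called higher and 3.36% lower with vehicle, so 1 called gene says little about its list.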

How the data were processed

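Total RNA of livers was enriched for polyA RNA and made into libraries with dUTP in the second strand, per the labels. The labels name Innomics and DNA nanoballs, whereas the study's methods name a university core and another instrument. The authors deposited counts per gene as whole numbers, without normalization. The submitters' processing notes list cutadapt 4.8, FastQC 0.11.8, STAR 2.7.8a, RSEM 1.3.3, and GRCm38, so the counts may be rounded RSEM estimates, which divide reads shared by paralogs. By the methods, annotation was Ensembl 102, genes at 0 in all samples were removed, and the authors tested with DESeq2.

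Groups were taken from the labels' titles, and libraries are numbered in accession order. Symbols matched 23900 of 23972 identifiers, and GENCODE M21 gave positions and exonic lengths for 23926. All genes were fitted in edgeR 4.0.16 (R 4.3.3; TMM, robust quasi-likelihood, 1 fit of 4 groups, no covariate). Calls needed an adjusted p under 0.05 and a fold above 1.5. Standard errors (SE) were the absolute log2 FC over the square root of F, and 95% intervals used 20 residual degrees of freedom. Log2 CPM used a prior count of 2. The floor of 3 counts covers counting error only. Nothing in the sources beyond the label numbers states batches, and p-values measure the spread between these mice. No pair of the 67 within groups was a duplicate (chi-square per degree of freedom 14.1 to 196). The fit was tested on simulated data.

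The 10 genes, the lists, and the tests were chosen with earlier results of these data known. Named genes are all 10 in every comparison, the called genes of each list (at most 5), the 3 genes of highest correlation per member that average 0 or more log2 CPM, Lmna, Fgf21, Scd1, and Elovl6. Other genes (Srebf1, Scap, Tecr, Hacd genes, Cfd, Clec4g, and genes that share sequence or overlap with members) were named outside this rule, after their values were seen. Lists cover other desaturases and elongases, elongation partners, electron donors, peroxisomal shortening, phospholipid acyl transfer, ceramide synthases, regulators, and markers of 7 cell types. Alternatives were DESeq2 1.42.0, its size factors in edgeR, filterByExpr, the groups compared alone, the adjusted p alone, the label number series as a covariate or restricted to 4 digits, the length slope (over 9694 genes) as a covariate, the 3 libraries left out together, and each library left out in turn. Promoter sequences are RefSeq's for GRCm38.p6.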

Additional observations from a re-analysis of the deposited data

Results flagged for a closer look

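Chance sets apart about 1 in 20 groups by the rule used (Dixon's gap test), and of 30 pairs of gene and group with 6 to 8 libraries, 3 had a library set apart. Fads1 in vehicle-treated LmnaADKO library 6 was at 363 CPM, below the next lowest at 508 CPM. Fads6 in vehicle-treated LmnaADKO library 2 was at 105 CPM, above the next highest at 91.2 CPM. Fads6 in FGF21-treated LmnaADKO library 7, 1 of the 3 libraries with a length slope, was at 53.3 CPM, below the next lowest at 77.8 CPM.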

How the results depend on the processing

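No paired analysis was possible because no label number is shared between groups. In vehicle-treated mice, the count of the 10 genes called stayed at 5 or 6 under all alternatives, and at 5 to 6 with each library left out in turn. With FGF21, the count of 4 became 7 with DESeq2 (adding Fads3, Elovl3, and Elovl7), 6 with filterByExpr (adding Elovl3 and Elovl7), 5 with the length slope covariate (adding Elovl7), 3 with the label number covariate (without Scd2), 3 without the 3 libraries with length slopes (without Fads1), 2 within 4-digit numbers (Elovl3 and Elovl5), and 2 to 6 with each library left out, the lowest without control FGF21 library 3 (Fads2 and Elovl5 left) and the highest without LmnaADKO FGF21 library 4 (adding Fads3 and Elovl7). With only the compared groups fitted it was 4, with Elovl3 in place of Scd2 (adjusted p = 0.119 for Scd2). FGF21 against vehicle and the interaction gave 0 called among the 10 under all alternatives. Over all genes, alternatives called 1604 to 3623 in vehicle-treated mice against 2033 (3623 with the adjusted p alone), and 148 to 1149 with FGF21 against 690 (148 within 4-digit numbers, 1149 without LmnaADKO FGF21 library 7). FGF21 against vehicle called 0 to 38 in controls against 13 (38 with DESeq2), 0 to 61 in LmnaADKO mice against 0 (61 without LmnaADKO FGF21 library 3, 15 with DESeq2), and the interaction 0 to 13 against 1 (13 with DESeq2).

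Differences near 0 changed sign, and the cause was not tested. The interaction of Elovl3 was -0.0042 with DESeq2 size factors, -0.00067 with DESeq2, -0.0064 with the length slope covariate, and -0.12 without the 3 libraries, and that of Elovl5 was -0.070 with the label number covariate. Within 4-digit numbers, Elovl6 with FGF21 was -0.075 between genotypes, and FGF21 against vehicle in LmnaADKO mice was -0.012 for Fads3, 0.067 for Elovl1, and -0.049 for Elovl2. With the label number covariate, Elovl6 with FGF21 was -0.048 between genotypes, FGF21 against vehicle was 0.081 for Fads3 and -0.010 for Elovl1 in controls, and 0.18 for Elovl3 in LmnaADKO mice. In controls, it was 0.043 for Fads3 and -0.15 for Elovl1 with the length slope covariate, and -0.20 for Elovl1 and 0.020 for Elovl3 without the 3 libraries. Leaving out each library moved it in controls to -0.23 to 0.18 for Elovl1, -0.10 to 0.11 for Fads3, -0.19 to 0.22 for Scd2, and -0.69 to 0.39 for Elovl3. In LmnaADKO mice it moved to -0.28 to 0.38 for Elovl3 and -0.23 to 0.013 for Elovl1. Interactions moved to -0.52 to 0.56 for Elovl3, -0.0023 to 0.41 for Scd2, and -0.27 to 0.17 for Elovl1. Genotype differences moved to -0.013 to 0.20 for Elovl2 with vehicle and, with FGF21, to -0.12 to 0.37 for Elovl6, -0.012 to 0.14 for Fads6, and -0.011 to 0.43 for Elovl1. The 3 FGF21-treated controls limit the comparisons that use them, and 4-digit numbers could not be compared alone for vehicle-treated genotypes or for treatment in controls, since 1 vehicle-treated control had one.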
